A study of Mus musculus with 27 samples.

Results

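The secretory mucosal defence genes examined here were 10 of the 50559 gene symbols of a count matrix, chosen by name (Ltf, Olfm4, Lcn2, Pigr, Slpi, Wfdc2, Saa1, Saa3, Lyz2 and Bpifa1). Ltf and Olfm4 were selected on their strong rise over days of culture in these same libraries, so their change over days is given as a description without a test. The other 8 were listed with them as products of secretory epithelia, to ask whether a wider set of such genes rose and how the radiation dose affected it. All 10 were in the matrix, 8 of them with more than 3 counts in at least 23 of the 27 libraries.

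RNA was taken from mouse thyroid gland organoids (mTGOs), 3D structures grown from dissociated thyroid tissue in Matrigel with EGF, FGF2, B27 and the ROCK inhibitor Y27632. All donors were C57BL/6 mice, 8-12 weeks old, with no modified allele named in the labels. Non-irradiated (0 Gy) organoids were taken on day 5, on day 7 and on day 11. Irradiated ones had received photons of 2, 4 or 7 Gy on day 5 and were taken on day 7 or day 11, which makes 9 groups of 3 libraries. The 3 libraries of every group carried the names of the same 3 cultures (mTG11, mTG12 and mTG14). The labels also number the mice, and how mouse numbers and cultures correspond was not given. Library totals ran from 2528866 to 5723150 counts. A gene was taken as detected above 3 counts, which stood for 0.524 to 1.19 CPM (the count divided by the library total, times 1000000). That limit covers counting error only.

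Moist epithelia protect themselves with secreted proteins. Lactotransferrin (Ltf) and lipocalin 2 (Lcn2) withhold iron from bacteria, lysozyme (Lyz2) cuts their cell walls, serum amyloid A proteins (Saa1 and Saa3) are acute phase products, and Slpi and Wfdc2 belong to the whey acidic protein family, which includes inhibitors of proteases. Pigr is the receptor that carries polymeric IgA across the epithelium, Bpifa1 is a surface-active protein of airway secretions, and Olfm4 is a secreted glycoprotein known from intestinal crypts and neutrophils.

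The tissue label was checked against markers. Of 12 thyroid follicular markers, the transcription factor genes Nkx2-1 (6.32 to 21.5 CPM) and Foxe1 (20.3 to 43.0 CPM) were detected in 27 of 27 libraries, while Slc5a5 was detected in 0 and Pax8 in 2, and Tg reached at most 16.7 CPM. The basal keratin genes Krt5 (1996 to 6433 CPM) and Krt14 (764 to 7530 CPM) were high in every library. Ltf, Olfm4, Lcn2 and Lyz2 are also made by leukocytes, and 20 myeloid markers were read beside them. Ptprc, Tyrobp, Cd52, Mpo, Elane, Camp and Ngp were detected in 0 of 27 libraries, while Cd68, Cd14, S100a8 and S100a9 were detected in 27, Laptm5 in 25, Itgam in 23 and Mmp9 in 21. Cd68 was at 6.29 ± 2.32 CPM at day 5 and 44.8 ± 12.5 CPM at day 11 without irradiation, and Cd14 at 49.2 ± 13.4 and 167 ± 38.2 CPM (SD, n = 3), so both were higher on the same days as Ltf, Olfm4 and Lcn2, and their part in those levels was not tested. The summed level of the myeloid list was 515 to 716 CPM at day 5, mostly from S100a8 and S100a9, which squamous epithelium also makes, and 194 to 313 CPM at day 11 without irradiation. Of the 20 markers, 8 had enough counts to be tested. Of these, 4 were higher at day 11 than at day 5 and 2 lower, against 21.3% and 20.1% of all genes. In bulk RNA, fewer cells of a type and less RNA per cell cannot be told apart.

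Positions are given on the build GRCm39 (GENCODE annotation). Ltf spans chromosome 9, 110848339 to 110871835, plus strand, with 17 exons in its canonical transcript. Olfm4 spans chromosome 14, 80221521 to 80260579, and Pigr chromosome 1, 130754397 to 130779986, both on the plus strand. Chromosome 2 holds Lcn2 (32274645 to 32278264, minus strand), Bpifa1 (153984800 to 153991139, plus strand), Slpi (164195990 to 164231015, minus strand) and Wfdc2 (164403475 to 164411377, plus strand). Saa3 (46361422 to 46365576) and Saa1 (46389916 to 46392547) are on the minus strand of chromosome 7, and Lyz2 (117111557 to 117118346) is on the minus strand of chromosome 10.

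Some counts are less certain than others because reads could be shared. The last 300 bases of the Saa1 transcript, the stretch a 3′-end protocol reads, were 89.3% identical to those of Saa2, against 48.3% for Lyz2 and Lyz1. Slpi is overlapped on its own strand by Matn4 and Mir7678, Olfm4 and Saa1 by 1 gene each, and Pigr and Lyz2 by 1 gene each on the opposite strand. Pigr held a whole-number count in 1 of 27 libraries, Wfdc2 in 9 and Ltf in 11, so most values of these genes contain shared reads. Slpi held whole counts in 18 and Lyz2 in 19, whereas Olfm4, Lcn2, Saa1, Saa3 and Bpifa1 held them in 27 of 27.

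Promoter windows of 250 bases before the start site (RefSeq promoter table of build GRCm38.p6, placed by exact match on GRCm39) are shown for 3 genes that moved in opposite directions over days, so that their letters can be compared. Capitals mark the C/EBP-like motif TTGCNNAA, which reads TTNNGCAA when it lies on the opposite strand. In GENCODE, 21 bases of the Ltf window, 24 of the Pigr window and 0 of the Slpi window lie in an annotated exon. The Ltf window is chr9:110848110-110848359 (plus strand), that of Pigr chr1:130754171-130754420 (plus strand) and that of Slpi chr2:164198428-164198677 (minus strand).
Ltf: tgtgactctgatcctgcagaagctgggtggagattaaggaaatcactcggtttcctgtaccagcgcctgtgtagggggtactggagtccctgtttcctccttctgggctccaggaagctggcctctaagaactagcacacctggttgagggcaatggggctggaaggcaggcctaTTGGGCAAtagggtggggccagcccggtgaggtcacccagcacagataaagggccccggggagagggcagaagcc
Pigr: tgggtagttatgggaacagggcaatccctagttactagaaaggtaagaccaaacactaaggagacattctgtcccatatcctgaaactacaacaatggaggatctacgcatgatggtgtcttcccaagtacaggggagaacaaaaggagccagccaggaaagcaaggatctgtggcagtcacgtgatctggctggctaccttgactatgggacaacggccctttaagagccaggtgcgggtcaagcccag
Slpi: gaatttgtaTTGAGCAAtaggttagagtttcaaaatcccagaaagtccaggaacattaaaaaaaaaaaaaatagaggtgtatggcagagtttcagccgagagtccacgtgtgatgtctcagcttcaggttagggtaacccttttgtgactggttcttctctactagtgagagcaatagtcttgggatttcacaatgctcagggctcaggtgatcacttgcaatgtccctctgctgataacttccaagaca
Ltf, which was higher at later days, held the motif from -75 to -68 relative to the start. Slpi, which was lower at later days, held it from -241 to -234, and the Pigr window held no match. Of the 10 windows, 5 held these letters (Ltf, Lcn2, Slpi, Saa1 and Saa3), against 9.56% of 32851 windows of the same length in the table. Of the 250 bases, 250 of the Saa3 window, 197 of the Lcn2 window and 143 of the Saa1 window lie in annotated exons, so 3 of these 5 windows are mostly exonic in GENCODE. The κB-like motif GGANNNTCC was in 1 of the 10 (Lyz2) and in 7.27% of all windows. The STAT-like motif TTCNNNGAA was in 0 of the 10 and in 7.02% of all windows, and TATAAA, searched on the gene's strand alone, was in 1 (Bpifa1) and in 7.59%. No pair of matches overlapped in these 10 windows. A match is a description of the letters, not a site.

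Without irradiation, Ltf, Olfm4, Pigr, Wfdc2 and Lcn2 were higher at day 11 than at day 5, Slpi was lower, and Saa1, Saa3, Lyz2 and Bpifa1 did not pass the test. Ltf was at 91.4, 110 and 93.1 CPM in cultures mTG11, mTG12 and mTG14 at day 5. It was at 1318, 770 and 847 CPM at day 7 and at 7350, 6937 and 9086 CPM at day 11. The 3 days did not overlap, and the fitted log2 fold change was 3.46 ± 0.19 (SE) from day 5 to day 7 and 3.00 ± 0.18 from day 7 to day 11. Olfm4 had counts of 0, 0 and 1 at day 5. Its levels were 7.29, 2.65 and 3.60 CPM at day 7 and 70.2, 27.9 and 43.4 CPM at day 11, without overlap between days. Against the limit of 3 counts in each day 5 library (1.01 CPM on average), Olfm4 was at least 4.47-fold higher at day 7 and at least 46.7-fold higher at day 11.

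**Figure D1:**
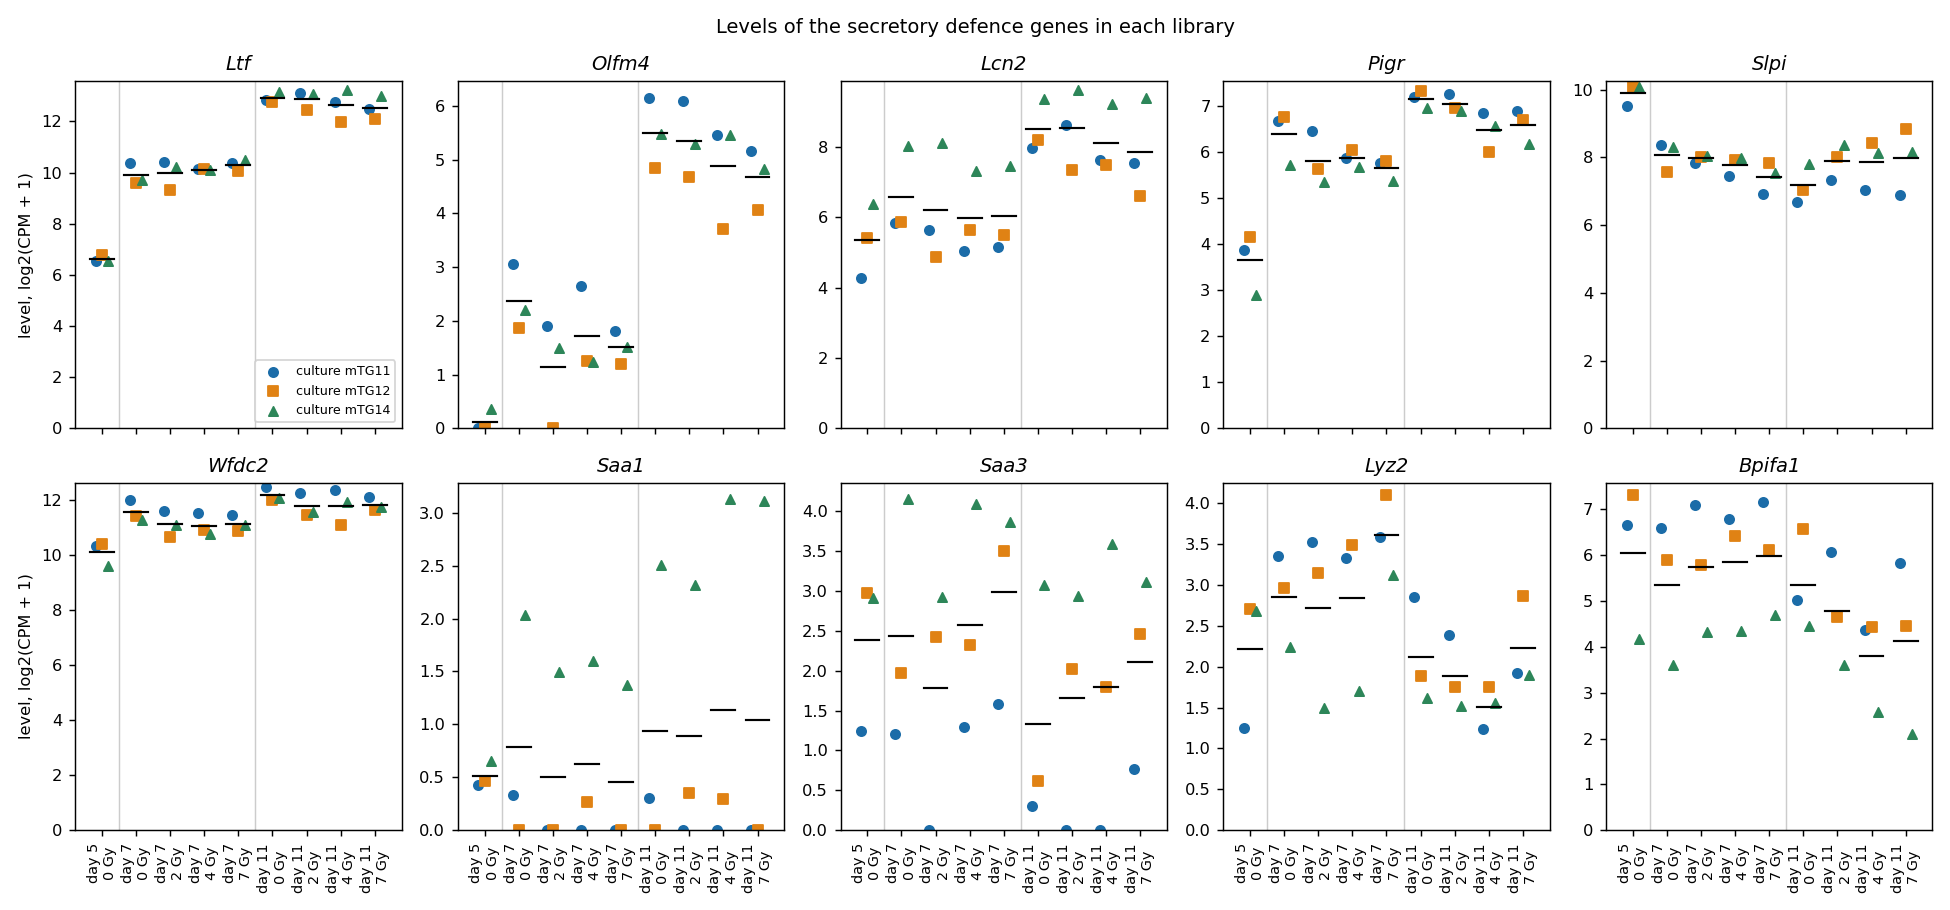
Level of each of the 10 genes as log2(CPM + 1) in each library, by day and dose (x axis), with the 3 cultures as symbols and the group mean as a bar. Ltf, Olfm4 and Pigr were higher at each later day at 0 Gy, Slpi was highest at day 5, and culture mTG14 was the highest in at least 8 of 9 groups for Lcn2, Saa1 and Saa3 and the lowest in 9 of 9 for Bpifa1.

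Among the other 8 genes, 3 were higher at day 11 than at day 5 (Pigr, Wfdc2 and Lcn2) and 1 was lower (Slpi) by the quasi-likelihood test of edgeR, adjusted by the Benjamini-Hochberg method over 18442 genes, at an adjusted p under 0.05. Of all genes tested, 21.3% were higher and 20.1% lower, and the median log2 fold change was 0.98 over the 8 genes and 0.06 over all genes. Pigr, the IgA transport receptor, was at 13.7, 16.9 and 6.42 CPM at day 5, at 101, 106 and 51.4 CPM at day 7 and at 144, 158 and 122 CPM at day 11. These days did not overlap. Against day 5, its log2 fold change was 2.98 ± 0.30 at day 7 (adjusted p = 5.76e-05) and 3.70 ± 0.30 at day 11 (adjusted p = 1.56e-06). Wfdc2 was at 1278, 1346 and 772 CPM at day 5, at 4086, 2740 and 2450 CPM at day 7 and at 5678, 4046 and 4233 CPM at day 11. Day 5 lay below both later days, which overlapped each other. Its log2 fold change was 1.59 ± 0.22 at day 7 (adjusted p = 0.000423) and 2.18 ± 0.22 at day 11 (adjusted p = 9.46e-06).

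Lcn2, the gene for the siderophore-binding lipocalin, was at 18.3, 41.4 and 82.1 CPM at day 5, at 56.3, 57.5 and 257 CPM at day 7 and at 248, 294 and 651 CPM at day 11. Culture mTG14 was the highest at each day, and day 11 did not overlap with day 5. The log2 fold change from day 5 to day 11 was 3.21 ± 0.66 (adjusted p = 0.00205). Slpi, the gene of the secretory leukocyte protease inhibitor, went the other way. It was at 734, 1069 and 1082 CPM at day 5, at 331, 188 and 312 CPM at day 7 and at 103, 132 and 223 CPM at day 11, and all 3 day 5 libraries were above every later library of this gene at 0 Gy. Its log2 fold change was -1.65 ± 0.28 at day 7 (adjusted p = 0.00145) and -2.50 ± 0.29 at day 11 (adjusted p = 2.37e-05).

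The remaining 4 genes were low or varied between cultures, and their days overlapped. The acute phase gene Saa3 was at 1.38, 6.84 and 6.56 CPM at day 5 and at 0.238, 0.536 and 7.42 CPM at day 11, a log2 fold change of -0.74 ± 1.10 (adjusted p = 0.628). Lyz2 was at 1.38, 5.51 and 5.42 CPM at day 5 and at 6.19, 2.68 and 2.06 CPM at day 11, a log2 fold change of 0.03 ± 0.52 (adjusted p = 0.969). Bpifa1 was at 99.97, 158 and 17.1 CPM at day 5 and at 31.4, 93.6 and 20.9 CPM at day 11, a log2 fold change of -0.76 ± 0.74 (adjusted p = 0.449). These errors are wide, and a change of either sign that is small against them was not detectable. Saa1 counts were 1, 1 and 2 at day 5 and 1, 0 and 17 at day 11, so no fold is given (adjusted p = 0.33).

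Split by interval, 2 of the 8 genes were higher at day 7 than at day 5 (Pigr and Wfdc2) and 1 lower (Slpi), against 12.0% and 9.62% of all genes. From day 7 to day 11, 1 was higher (Pigr, log2 fold change 0.72 ± 0.23, adjusted p = 0.0456) and 1 lower (Slpi, -0.86 ± 0.28, adjusted p = 0.0466), against 9.57% and 11.7% of all genes. Both calls were near the threshold, and DESeq2 made 0 calls among the 8 genes in that interval (share of all genes not given). There edgeR gave 4 of the 8 at an unadjusted p under 0.05, against 6205 of all 18442 genes. Pigr passed in 1 of 6 fits that left out 1 library (the one without the mTG12 library of day 7, log2 fold change 0.91) and Slpi in 2 of 6 (without the mTG12 library of day 7, -1.07, and without the mTG14 library of day 11, -1.27). With the culture as a block, a term that compares libraries within a culture, Lcn2 was also higher from day 5 to day 7 (1.44 ± 0.20, adjusted p = 0.000178) and from day 7 to day 11 (1.88 ± 0.17, adjusted p = 3.14e-06). Wfdc2 then passed from day 7 to day 11 too (0.61 ± 0.13, adjusted p = 0.00318). The block raised the share of all genes called to 25.0% from day 5 to day 7, 24.8% from day 7 to day 11 and 43.6% from day 5 to day 11, where it added no call among the 8 genes.

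The step from day 7 to day 11 was then followed in irradiated organoids. Ltf changed by a log2 fold of 2.84 ± 0.30 at 2 Gy, 2.67 ± 0.30 at 4 Gy and 2.26 ± 0.29 at 7 Gy. At 7 Gy its levels were 1315, 1064 and 1421 CPM at day 7 and 5801, 4331 and 8090 CPM at day 11, and the days did not overlap at any of the 3 doses. Olfm4 changed by 5.09 ± 0.73, 3.75 ± 0.62 and 3.75 ± 0.67 on the log2 scale at 2, 4 and 7 Gy, also without overlap. The first of these rests on day 7 counts of 7, 0 and 5. Both genes are described without a test here, since the same rise at 0 Gy had chosen them.

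The level of Pigr rose from day 7 to day 11 after 2 Gy (log2 fold change 1.18 ± 0.27, adjusted p = 0.00265) and 7 Gy (0.97 ± 0.26, adjusted p = 0.0155), and the days did not overlap at either dose. The 7 Gy call was lost without the mTG14 library of day 7 (0.86) or the mTG11 library of day 11 (0.82). At 4 Gy the value was 0.70 ± 0.26 (adjusted p = 0.0706), and with the culture block it passed (adjusted p = 0.00921). Thus 1, 0 and 1 of the 8 genes were higher at 2, 4 and 7 Gy, against 7.53%, 7.66% and 6.17% of all genes. At 4 Gy, 5 of the 8 had an unadjusted p under 0.05, against 6416 of all 21928 genes. DESeq2 called 2 of the 8 changed (Pigr and Lyz2, share of all genes not given).

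Lyz2, the lysozyme gene, was lower at day 11 after 4 Gy (log2 fold change -1.87 ± 0.60, adjusted p = 0.0319) and 7 Gy (-1.52 ± 0.48, adjusted p = 0.0401). At 7 Gy it was at 11.0, 16.2 and 7.72 CPM at day 7 and at 2.80, 6.30 and 2.73 CPM at day 11, with no overlap. The 4 Gy call held in 1 of 6 fits that left out 1 library (without the mTG14 library of day 7, -2.27), and the 7 Gy call in 2 of 6 (without the mTG14 library of day 7, -1.73, and without the mTG12 library of day 11, -2.02). It was the only one of the 8 genes called lower, at 4 and 7 Gy, and none was at 2 Gy. Of all genes, 9.69%, 9.44% and 6.15% were lower at 2, 4 and 7 Gy.

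With the culture block, Lcn2 and Wfdc2 were higher at day 11 than at day 7 at all 3 doses. Lcn2 changed by 2.27 ± 0.28, 2.12 ± 0.28 and 1.83 ± 0.28 on the log2 scale at 2, 4 and 7 Gy (adjusted p = 1.21e-06, 4.06e-06 and 3.98e-05). Wfdc2 changed by 0.64 ± 0.12, 0.80 ± 0.12 and 0.69 ± 0.12 (adjusted p = 0.000284, 2.11e-05 and 0.000164). Bpifa1, the airway secretion gene, was at 141, 68.6 and 24.7 CPM at day 7 and at 55.7, 20.9 and 3.28 CPM at day 11 after 7 Gy, with overlap between cultures. With the block it was lower at 4 Gy (-2.13 ± 0.40, adjusted p = 0.000336) and at 7 Gy (-1.61 ± 0.36, adjusted p = 0.00226), in 3 of 3 cultures each time, and Lyz2 was lower at 2 Gy as well (-1.18 ± 0.40, adjusted p = 0.0355). Saa1 passed at 7 Gy (adjusted p = 0.0385), on counts of 6 at day 7 and 28 at day 11 in mTG14 and 0 in the other 4 libraries. In all, the block called 4, 5 and 6 of the 8 genes at 2, 4 and 7 Gy, against 21.3%, 21.2% and 17.2% of all genes. Slpi, which fell over days at 0 Gy, had a log2 fold change of 0.70 ± 0.38 at 7 Gy (adjusted p = 0.264).

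**Figure D2:**
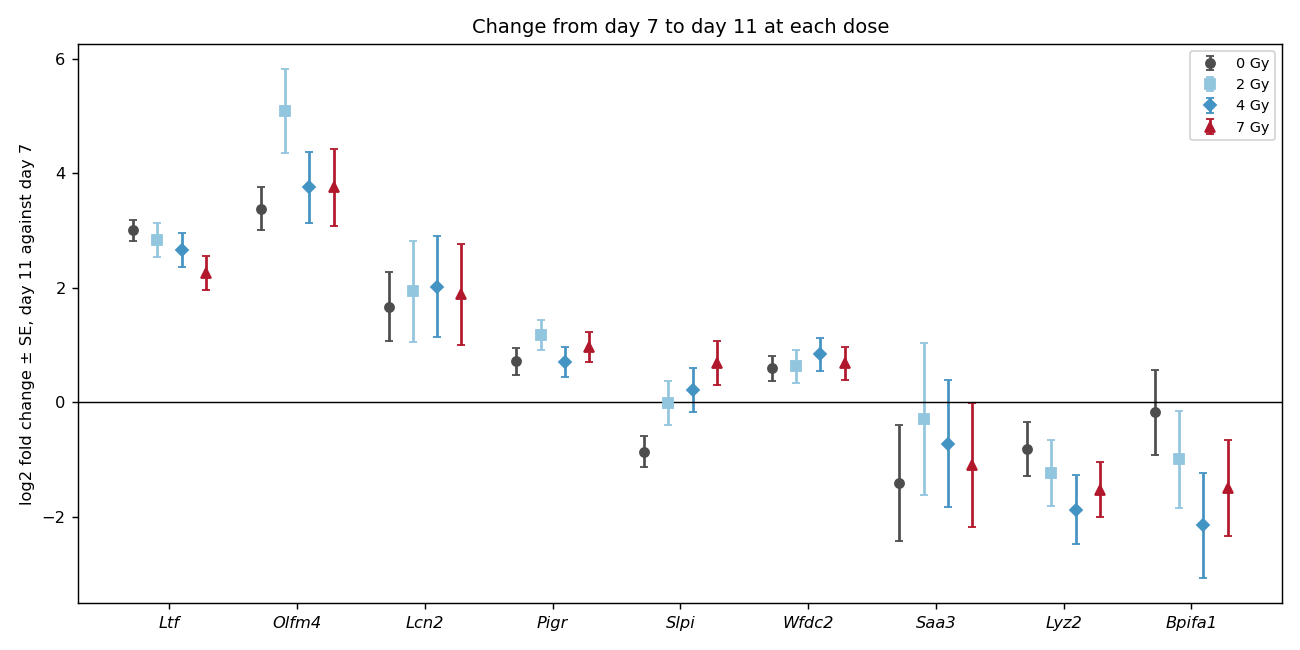
Log2 fold change from day 7 to day 11 (y axis, ± SE from the fit without a culture block) for 9 genes at 0, 2, 4 and 7 Gy, with Saa1 left out for its low counts. Ltf and Olfm4 lie above 2 at every dose, Pigr lies between 0.70 and 1.18, and Slpi is at -0.86 at 0 Gy and 0.70 at 7 Gy.

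The effect of dose was asked at each day, where the 3 doses were compared with the same 3 non-irradiated libraries, which these comparisons therefore share. Without the culture block, 0 of the 10 genes differed from 0 Gy at any dose or day by the quasi-likelihood test of edgeR after Benjamini-Hochberg adjustment. Of all genes, 0.124%, 1.63% and 6.95% were called at 2, 4 and 7 Gy at day 7, and 0.0%, 0.00502% and 1.52% at day 11. At an unadjusted p under 0.05 the counts were 2, 2 and 2 of the 10 at day 7 and 0, 1 and 1 at day 11, with Pigr in each of the 5 comparisons that were not at 0. Of all genes, 1629, 2901 and 4112 of 19346 were under it at day 7 and 1159, 1501 and 2961 of 19901 at day 11. DESeq2 called Pigr at 7 Gy at day 7 and none in the other 5 comparisons (share of all genes not given). It had no value for 2, 1 and 1 of the 10 genes at 2, 4 and 7 Gy at day 7. At 7 Gy the median log2 fold change of the 10 genes was -0.51 at day 7 and -0.39 at day 11, and that of all genes was 0.01 at both days. At day 11 this median is a description, since Ltf and Olfm4 were chosen on levels that include the high non-irradiated ones of that day. Both medians also include Saa1, which exceeded 3 counts in 8 of 27 libraries. The dose labels were read in p53 target genes, of which 6 of 8 were higher at 7 Gy at day 7, with Cdkn1a at 243 ± 18.4 CPM at 0 Gy and 597 ± 83.9 CPM at 7 Gy (SD, n = 3), and 0 of 8 at day 11.

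Within cultures the errors were smaller, and most of the genes that then passed were lower after irradiation. With the culture block at day 7, Wfdc2 was lower at 2 Gy (log2 fold change -0.47 ± 0.09, adjusted p = 0.0187), 4 Gy (-0.55 ± 0.09, adjusted p = 0.00137) and 7 Gy (-0.44 ± 0.09, adjusted p = 0.00351), in 3 of 3 cultures each time although the groups overlapped. Pigr was at 53.4, 54.5 and 39.9 CPM at 7 Gy, against 101, 106 and 51.4 CPM at 0 Gy. It was lower in 3 of 3 cultures (-0.78 ± 0.17, adjusted p = 0.00646). Slpi was lower in 2 of 3 cultures (-0.68 ± 0.19, adjusted p = 0.0313), and Bpifa1 was higher in 3 of 3 (0.55 ± 0.16, adjusted p = 0.0355). The block called 1, 1 and 4 of the 10 genes at 2, 4 and 7 Gy, against 0.713%, 5.22% and 11.3% of all genes.

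At day 11, among the genes other than Ltf and Olfm4, the block called none at 2 Gy and Pigr alone at 4 and 7 Gy. Of all genes, it called 0.362%, 1.2% and 6.52% at 2, 4 and 7 Gy. Olfm4 was at 70.2, 27.9 and 43.4 CPM at 0 Gy and at 34.6, 15.7 and 27.3 CPM at 7 Gy. It was lower in 3 of 3 cultures although the groups overlapped (log2 fold change -0.89 ± 0.17 with the block). Ltf, at 5801, 4331 and 8090 CPM at 7 Gy, was lower in 3 of 3 cultures as well (-0.44 ± 0.12 with the block). The non-irradiated day 11 libraries in both comparisons are among those whose high levels chose these genes, so neither is independent of the choice and both are given without a p-value. Pigr, which that choice did not use, was lower at 4 Gy (-0.69 ± 0.15, adjusted p = 0.0443) and 7 Gy (-0.60 ± 0.15, adjusted p = 0.0268). At 7 Gy it was at 116, 101 and 71.0 CPM, below the 144, 158 and 122 CPM of the non-irradiated libraries without overlap. Wfdc2 was lower at 7 Gy in 3 of 3 cultures but did not pass with the block (-0.39 ± 0.13, adjusted p = 0.0896).

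**Figure D3:**
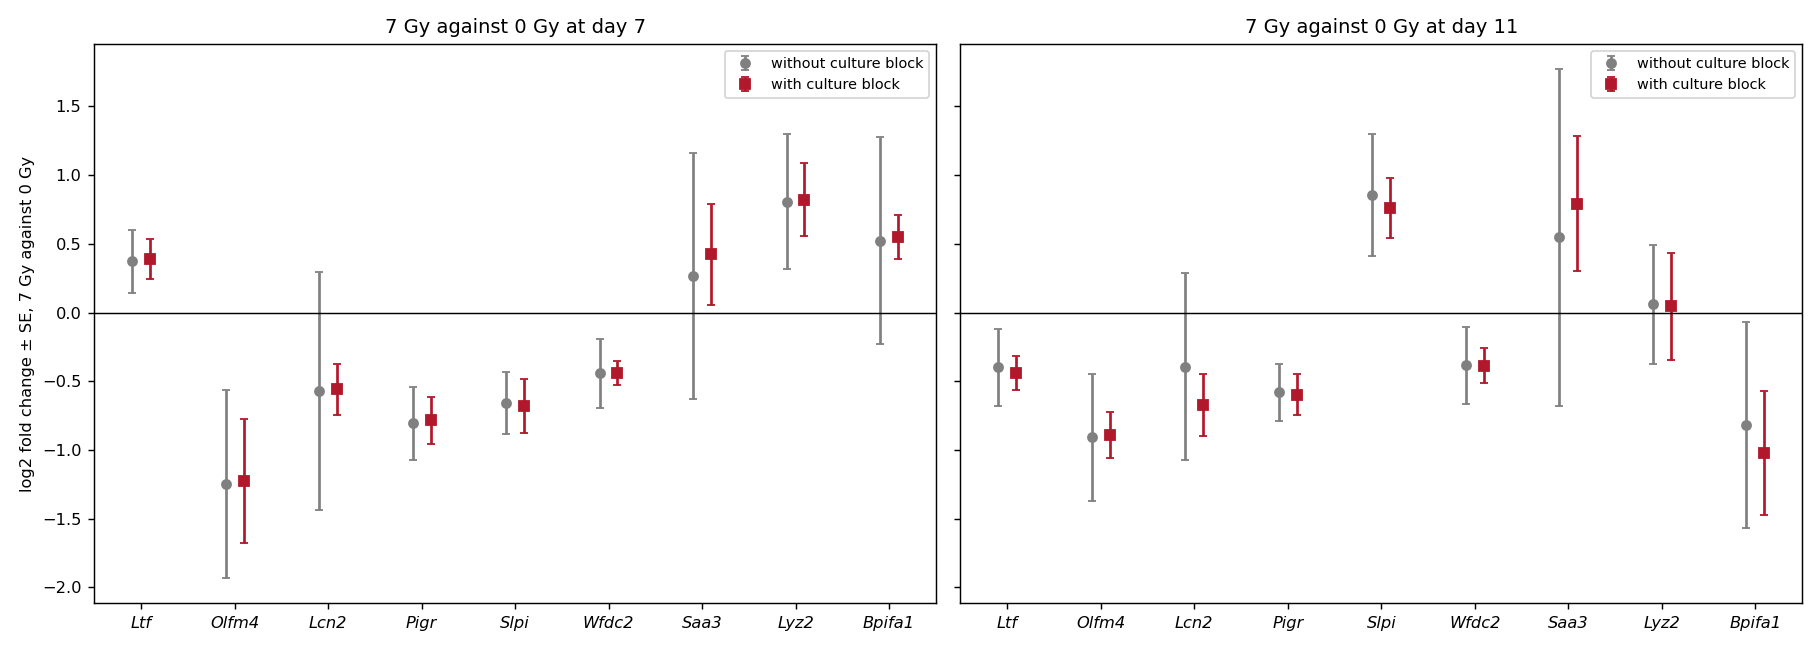
Log2 fold change of 7 Gy against 0 Gy (± SE) at day 7 and day 11 for 9 genes, from the fits without and with the culture as a block, with Saa1 left out for its low counts. Each error is smaller with the block, and with it Slpi is at -0.68 at day 7 and 0.76 at day 11.

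Taking dose as a number, 0 of the 10 genes had a slope at day 7 or at day 11 without the block, against 8.62% and 2.51% of all genes. By edgeR, 2 of the 10 were under an unadjusted p of 0.05 at day 7 (Slpi and Pigr). At day 11, leaving out Ltf and Olfm4 for the way they were chosen, Pigr alone was. Of all genes, 4318 of 19346 were under it at day 7 and 3316 of 19901 at day 11. DESeq2 called 2 of the 10 at day 7 (Slpi and Pigr) and 1 at day 11 (Pigr). Its share of all genes is not given, and the shares above are those of edgeR. With the block, Pigr (-0.10 ± 0.03 log2 units per Gy, adjusted p = 0.0184) and Slpi (-0.10 ± 0.03, adjusted p = 0.0205) had a negative slope at day 7. Bpifa1 (0.07 ± 0.02, adjusted p = 0.0355) and Lyz2 (0.13 ± 0.04, adjusted p = 0.0463) had a positive one, and 11.9% of all genes were called. At day 11 Pigr had a negative slope (-0.10 ± 0.02, adjusted p = 0.0266), and 6.79% of all genes were called. The block also called Olfm4 (-0.13 ± 0.02) and Ltf (-0.07 ± 0.02), which is a description, since a negative slope is favoured by a choice made on high levels in the non-irradiated libraries of that day.

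Whether the response to 7 Gy differed between the days was tested directly. Without the block, 0 of the 10 genes differed (3.02% of all genes), and 0 were called by DESeq2 (share of all genes not given). Slpi alone had an unadjusted p under 0.05, as had 3091 of all 21928 genes. With the block, 1 of the 10 did (5.27% of all genes). That gene was Slpi, with a response that was greater at the later day by 1.60 ± 0.40 log2 units (adjusted p = 0.0146 with the block, 0.146 without). At day 7 it was at 331, 188 and 312 CPM at 0 Gy and at 119, 228 and 183 CPM at 7 Gy. At day 11 it was at 103, 132 and 223 CPM at 0 Gy and at 118, 459 and 284 CPM at 7 Gy, higher in 3 of 3 cultures and overlapping.

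Several genes kept an order of cultures across groups. Culture mTG14 had the highest Lcn2 and the highest Saa1 in 9 of 9 groups and the highest Saa3 in 8 of 9. Its median difference from the mean of the other cultures on the log2(CPM + 1) scale was 1.98 for Lcn2, 1.86 for Saa1 and 1.93 for Saa3. For Bpifa1 it was -2.12, and mTG14 was the lowest in 9 of 9 groups. Saa1 exceeded 3 counts in 8 of 27 libraries, all of them mTG14. Culture mTG11 had the highest Olfm4 and the highest Wfdc2 in 8 of 9 groups. Each culture is 1 source, so no test of these differences is given.

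Over 27 libraries, which share days and cultures, Pearson's r of log2(CPM + 1) with Ltf was 0.921 for Olfm4, 0.882 for Pigr, 0.853 for Wfdc2, 0.747 for Lcn2 and -0.648 for Slpi. Ltf and Olfm4 were both chosen for their rise over days in these libraries. A high r between their levels follows from that choice and shows nothing further. After the group means were taken off, r was 0.816 between Olfm4 and Wfdc2, 0.77 between Ltf and Olfm4 and 0.214 between Ltf and Pigr. In the same deviations Lcn2 went with Saa1 (0.835) and Saa3 (0.665) and against Bpifa1 (-0.78), which is the order of the cultures given above.

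**Figure D4:**
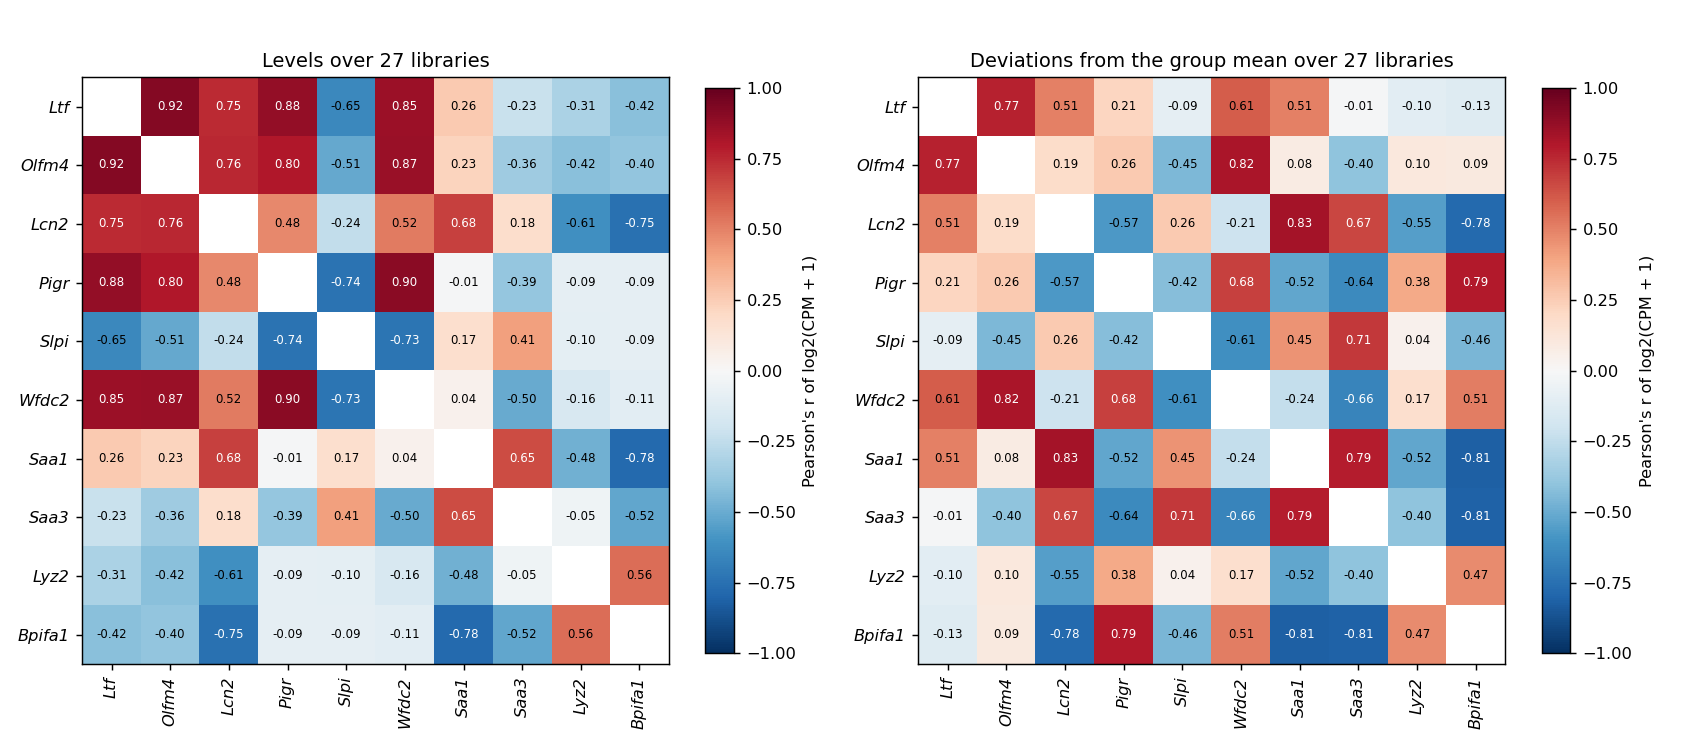
Pearson's r between the 10 genes for log2(CPM + 1) over 27 libraries and for deviations from the group mean, coloured by sign and size. Ltf, Olfm4, Pigr, Wfdc2 and Lcn2 are positive with one another in levels, and in deviations Lcn2, Saa1 and Saa3 are positive with one another and negative with Bpifa1. The choice of Ltf and Olfm4 for their rise over days favours a high r between their levels.

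Of all genes averaging 10 CPM or more, the 3 most like Ltf over the 27 libraries by Pearson's r were Nupr1 (r = 0.98), Gm14137 (0.976) and Osgin1 (0.975), and Olfm4 was close to Cldn23 (0.971) and Jund (0.968). Pigr was most like F3 (0.956), Tnip3 (0.95) and Cxcl17 (0.931), and Wfdc2 most like Fmo2 (0.97), Cxcl17 (0.966) and Cbr2 (0.964). Lcn2 was closest to Trf (0.857), Acta2 (0.845) and Smad4 (0.842). Slpi was closest to Mir7678 (0.985), which lies within the Slpi span on the same strand, then to Sbsn (0.884) and Fem1a (0.874). Bpifa1 was closest to Scgb3a1 (0.851), Gusb (0.764) and Ptprg (0.736), Saa3 to Bgn (0.766), Mmp3 (0.76) and Dcn (0.757), and Lyz2 to Mgat1 (0.861), Becn1 (0.822) and Ext1 (0.807). The order depends on the measure. By Spearman's rho, the 3 closest genes held 0 of the 3 by Pearson's r for Ltf, 1 for Olfm4, Lcn2 and Wfdc2, 2 for Pigr, Slpi and Saa3 and 3 for Lyz2 and Bpifa1.

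Other genes of mucosal defence moved in both directions from day 5 to day 11. Of all genes tested, 21.3% were higher and 20.1% lower in this comparison, against which the counts of each list are to be read. Of 18 other antimicrobial and acute phase genes tested, 8 were higher and 4 lower, with a median log2 fold change of 2.01 against 0.06 for all genes. Pglyrp1, a peptidoglycan recognition protein gene, was at 97.7 ± 28.0 CPM at day 5 and 1560 ± 639 CPM at day 11 (SD, n = 3), and the C-type lectin gene Reg3g at 497 ± 273 and 2063 ± 569 CPM. S100a9, a calprotectin subunit gene, was at 344 ± 60.2 and 5.14 ± 2.95 CPM, and the defensin gene Defb14 at 102 ± 34.9 and 12.8 ± 6.27 CPM. Of 18 mucin and secretory product genes, 10 were higher and 3 lower (median 1.86), among them Aqp5 (712 ± 290 and 1809 ± 565 CPM) and Clu (34.8 ± 4.96 and 169 ± 61.9 CPM). Of 12 secreted protease inhibitor genes, 5 were higher and 3 lower (median 0.58). Wfdc12 was at 6.21 ± 2.45 and 120 ± 6.93 CPM and Spint2 at 352 ± 9.12 and 760 ± 61.9 CPM, while Spink5, an epidermal inhibitor gene, was lower like Slpi, at 3630 ± 242 and 277 ± 31.6 CPM.

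Receptors and transcription factors known to induce such genes were read in the same comparisons. Of 24, 11 were higher and 3 lower at day 11 than at day 5 (21.3% and 20.1% of all genes), including the epithelial ETS factor gene Elf3 (70.6 ± 14.5 and 241 ± 31.5 CPM) and Nfkbia (151 ± 23.1 and 234 ± 35.8 CPM). At 7 Gy against 0 Gy, 3 were higher and 4 lower at day 7 (6.95% of all genes called), where Cebpb was at 84.4 ± 12.2 CPM at 0 Gy and 53.2 ± 6.15 CPM at 7 Gy. At day 11, 3 were higher and 1 lower (1.52% of all genes called), with Tnfaip3, an inhibitor of NF-κB signalling, at 13.9 ± 3.21 and 31.7 ± 4.44 CPM and Cebpd at 57.7 ± 3.25 and 32.8 ± 1.99 CPM. Fits that left out 1 library lost the call of Cebpb in 2 of 6 and that of Cebpd in 4 of 6. They also lost Nfkbia at day 7 in 5 of 6 and Nfkbiz at day 11 in 6 of 6.

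The other defence lists were also read at 7 Gy against 0 Gy. At day 7, where 6.95% of all genes were called, 2 of 18 antimicrobial genes were lower, Defb1 (43.1 ± 2.88 CPM at 0 Gy and 19.4 ± 2.65 CPM at 7 Gy) and Defb4 (13.7 ± 7.69 and 2.60 ± 1.25 CPM), 1 of 12 protease inhibitor genes was higher (Cst6, 26.9 ± 3.55 and 55.7 ± 10.9 CPM) and 0 of 19 mucin and secretory product genes were called by edgeR. With the culture block (11.3% of all genes), 1 antimicrobial gene was higher and 4 lower, 1 mucin and secretory product gene was higher and 4 lower, and 3 protease inhibitor genes were higher. At day 11, 0 of 19 antimicrobial, 0 of 19 mucin and secretory product and 0 of 13 protease inhibitor genes were called, against 1.52% of all genes. With the block (6.52% of all genes) the antimicrobial list had 4 higher and 2 lower, the protease inhibitor list 4 higher and 1 lower and the mucin list 0.

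Markers of epithelial cell types moved over the same days. Of 10 luminal epithelial markers, 9 were higher and 0 lower at day 11 than at day 5, where 21.3% of all genes were higher and 20.1% lower, with summed levels of 1064 to 1304 CPM at day 5 and 3739 to 5195 CPM at day 11. Of 12 basal and squamous markers, 2 were higher and 9 lower, with sums of 25210 to 31350 CPM at day 5 and 9711 to 11370 CPM at day 11. Multiciliated markers, 8 of 8 higher, summed to 7.62 to 14.5 CPM at day 5 and 43.2 to 100.3 CPM at day 11, and 5 of 8 fibroblast markers were lower, with sums of 32.1 to 116 CPM and 5.95 to 38.3 CPM. Thyroid follicular markers summed to 53.8 to 68.2 CPM at day 5 and 202 to 289 CPM at day 11, with 4 of the 7 tested higher, mostly through the hydrogen peroxide generating oxidase gene Duox2 (0.515 and 64.3 CPM on average) and its maturation factor gene Duoxa2 (0.337 and 136 CPM). The part of these marker changes in the levels of the 10 genes was not tested. At day 11, Ltf, Olfm4, Pigr and Wfdc2 were lower at 7 Gy than at 0 Gy in 3 of 3 cultures. Slpi and Saa3 were higher in 3 of 3, and the other genes moved in both directions between cultures. Ltf and Olfm4 had been chosen on levels that include the high non-irradiated ones of that day. In the same comparison, 2 of 8 multiciliated markers were lower (7 of 8 with the culture block), with sums of 14.5 to 37.9 CPM at 7 Gy. Thyroid follicular markers then summed to 136 to 209 CPM, with 0 of 8 called by edgeR (2 lower with the block). Basal and squamous markers summed to 10900 to 16420 CPM, with 1 of 12 higher (5 with the block), fibroblast markers to 16.6 to 77.9 CPM, with 0 of 8 called (3 higher with the block), and luminal markers to 3651 to 5039 CPM, with 0 of 10 called (1 higher and 1 lower with the block). Of all genes, 1.52% were called without the block and 6.52% with it, and the part of these markers in the dose values was not tested either.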

How the data were processed

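Single-read 3′-end libraries (Smart3SEQ) of mouse thyroid gland organoids were analysed, 27 in 9 groups of 3. The deposited matrix holds estimated counts per gene symbol that the authors made from reads on GRCm39. They are not all whole (56.3% of values above 0 were whole within 1e-06), so they were rounded here. STAR and edgeR are named in the submitters' processing notes without a role. Totals were 2528866 to 5723150 per library (median 3758142), and precision for low genes is limited accordingly.

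Groups came from the sample titles, and culture names from the matrix columns. Tests used edgeR 4.0.16 in R 4.3.3 (quasi-likelihood, TMM, at least 10 counts summed over a fit, Benjamini-Hochberg at 0.05), in 1 fit of 9 non-irradiated libraries, 1 fit of 12 per day for dose and 1 of 24 for days after irradiation and the interaction. Dose was also fitted as a number. All scripts that made tests were tested on simulated data. Alternatives were DESeq2 1.42.0, other scalings and filters, a culture block, single libraries left out and, chosen after seeing the data, unrounded counts and leaving out culture mTG14. Tables and plots used Python 3.11.15, numpy 2.4.6, pandas 2.3.3 and matplotlib 3.10.9.

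The block was accepted because the column names give the same culture in every group. Deviations from group means over 13158 genes correlated on average at 0.313, 0.26 and 0.24 within mTG11, mTG12 and mTG14 and at -0.135 between cultures. Deviations in a group cancel out, so the value between cultures follows from those within and adds nothing to them. The lowest correlation of a pair within a culture was 0.0642. P-values without the block measure the spread between these cultures. Those with the block measure the spread that remains after each culture's own level is taken off.

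The 10 genes and the other lists were chosen with earlier results of these data known. Of each list, up to 4 called genes of highest mean CPM were eligible to be named, and for each of the 10 genes with a mean of at least 5 CPM the 3 genes of highest Pearson's r. Some genes these rules select are not reported here. CPM values are on library totals.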

Additional observations from a re-analysis of the deposited data

Results flagged for a closer look

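The response of Slpi to 7 Gy differed between the days with the culture as a block. It was 1.60 log2 units higher at day 11 than at day 7 (adjusted p = 0.0146 by the quasi-likelihood test of edgeR), and without the block the difference was 1.55 (adjusted p = 0.146). At day 7, Slpi was lower at 7 Gy in 2 of 3 cultures, and at day 11 it was higher in 3 of 3, most in mTG12. Mir7678 lies within the Slpi span on the same strand, and its part in the Slpi counts was not tested.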

How the results depend on the processing

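The number of the 8 genes called higher from day 5 to day 11 was 3 under every alternative run, and from day 5 to day 7 it was 2, or 3 with the block or with a filter of 1 count. The other counts, of genes called higher between days and of genes called for dose, moved. With the culture block the calls were 3 from day 7 to day 11 at 0 Gy, 1, 1 and 4 at 2, 4 and 7 Gy at day 7 with 4 slopes, 0, 1 and 3 at day 11 with 3 slopes, 3, 3 and 4 from day 7 to day 11 at 2, 4 and 7 Gy, and 1 in the interaction. Ltf and Olfm4 are counted among those at 7 Gy and in the slope at day 11, which is a description, since their choice favoured it. Beyond the genes named with it in the report, the block changed no call among the 10. With a filter of 1 count the calls were 3, then 3, 4 and 8 with 1 slope, then 2, 4 and 6, then 3, 4 and 5, and 3. That filter took the prior degrees of freedom of edgeR from 6.04 to 342 in the non-irradiated fit. In the dose fit at day 7 they went from 6.19 to 190000. They became infinite in the dose fit at day 11 (from 5.74) and in the fit for days after irradiation (from 6.81). The spread of single genes therefore weighed less. The share of all genes called under that filter is not given, so its counts cannot be read as a result about the 10 genes. DESeq2 called 0 from day 7 to day 11 at 0 Gy, 1 at 7 Gy at day 7, 2 and 1 slopes at day 7 and day 11, and 1 from day 7 to day 11 at 4 Gy. From day 7 to day 11 the count was 0 without TMM at 0 Gy, 1 with RLE, 1 unrounded and 2 with filterByExpr at 4 Gy, 2 in fits of the compared groups at 0, 4 and 7 Gy, and 2, 2, 1 and 2 without mTG14 at 0, 2, 4 and 7 Gy. filterByExpr gave 1 slope at day 7. Without 1 library the counts ran from 0 to 1 for day 7 to day 11 at 0 Gy and 7 Gy, 7 Gy at day 7, both slopes and the interaction, from 1 to 2 at 2 Gy and from 0 to 2 at 4 Gy. Apart from the block and filter, the cause was not tested. Saa1 had no value where it was filtered out, and its folds, like those of Olfm4 against day 5, are not given because a group was at or under 3 counts.

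Directions changed for the following values, none of which had passed without the block. Of them, Bpifa1 at 7 Gy and in the slope at day 7 had passed with it. Changes between days are written as days 5-7, 7-11 and 5-11 (0 Gy unless a dose is named), and other values are log2 differences from 0 Gy. Saa3 for days 5-7 (0.67) was at -0.81 without mTG14. Lyz2 for days 5-11 (0.030) was at -0.11 without TMM, -0.043 with the block, -0.012 unrounded. Ltf for 2 Gy on day 7 (0.097) was at -0.055 without mTG14. Saa3 for 2 Gy on day 7 (-0.92) was at 0.28 without mTG14. Lyz2 for 2 Gy on day 7 (0.0021) was at -0.0070 with DESeq2, -0.0017 with RLE, -0.020 with a filter of 1 count, -0.0021 with filterByExpr, -0.055 with the block, -0.00027 in a fit of the compared groups. Saa3 for 4 Gy on day 7 (0.021) was at -0.022 with DESeq2, -0.0015 with a filter of 1 count, -0.0068 with the block. Ltf for 2 Gy on day 11 (-0.071) was at 0.028 without mTG14. Lcn2 for 2 Gy on day 11 (0.091) was at -0.0055 with the block. Lyz2 for 7 Gy on day 11 (0.059) was at -0.00015 without mTG14. Slpi for days 7-11 at 2 Gy (-0.011) was at 0.0075 with DESeq2, 0.0050 with RLE, 0.034 with a filter of 1 count, 0.019 with filterByExpr, 0.0011 unrounded, 0.017 in a fit of the compared groups. Lcn2 for the interaction (0.21) was at -0.12 with the block, -0.38 without mTG14. Without 1 library, Saa3 ran from -1.09 to 1.18 (days 5-7), -4.14 to 0.36 (days 7-11), -1.42 to 0.82 (2 Gy on day 7), -1.37 to 1.76 (4 Gy on day 7), -0.24 to 2.02 (7 Gy on day 7), -0.92 to 2.94 (2 Gy on day 11), -1.01 to 3.44 (4 Gy on day 11), -0.098 to 3.30 (7 Gy on day 11), -1.39 to 0.38 (days 7-11 at 2 Gy), -2.38 to 0.69 (days 7-11 at 4 Gy) and -1.47 to 3.03 (the interaction). Bpifa1 from -1.22 to 0.041 (days 5-7), -1.03 to 0.47 (days 7-11), -0.54 to 0.96 (2 Gy on day 7), -0.18 to 0.95 (4 Gy on day 7), -0.23 to 1.17 (7 Gy on day 7), -0.024 to 0.12 (the slope at day 7), -1.46 to 0.34 (2 Gy on day 11) and -1.94 to 0.035 (7 Gy on day 11). Lyz2 from -0.57 to 0.33 (days 5-11), -0.33 to 0.40 (2 Gy on day 7), -0.33 to 0.47 (4 Gy on day 7), -0.88 to 0.17 (2 Gy on day 11), -0.44 to 0.66 (7 Gy on day 11) and -0.085 to 0.094 (the slope at day 11). Lcn2 from -1.77 to 0.98 (2 Gy on day 7), -1.71 to 0.47 (4 Gy on day 7), -1.69 to 0.60 (7 Gy on day 7), -0.24 to 0.022 (the slope at day 7), -0.56 to 0.69 (2 Gy on day 11), -1.10 to 0.25 (4 Gy on day 11), -1.55 to 0.20 (7 Gy on day 11) and -0.99 to 1.32 (the interaction). Ltf from -0.13 to 0.35 (2 Gy on day 7), -0.010 to 0.39 (4 Gy on day 7), -0.18 to 0.092 (2 Gy on day 11) and -0.52 to 0.056 (4 Gy on day 11). Olfm4 from -0.62 to 0.23 (2 Gy on day 11) and -0.12 to 0.75 (the interaction). Slpi from -0.24 to 0.25 (days 7-11 at 2 Gy) and -0.062 to 0.54 (days 7-11 at 4 Gy). Wfdc2 from -0.13 to 0.29 (the interaction).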
